A study of Mus musculus with 8 samples.

Results

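Cluster 7 of the liver nuclei held the T and NK cells, the lymphocytes that carry T cell receptors or natural killer receptors. Its members are the nuclei behind 2 columns of a table of mean levels per cluster, 1 column per genotype, and were taken by cluster number. The MKO pool had 415 of its 9204 nuclei in this cluster and the control pool had 237 of its 8281, 652 of 17485 in all. The MKO nuclei came from mice with floxed Tgfbr1 alleles and LysMcre, which expresses Cre recombinase from the Lyz2 locus of myeloid cells. The control nuclei came from mice with the floxed alleles and no Cre. Both genotypes had been on a MASH diet (a model of metabolic dysfunction-associated steatohepatitis) for 30 weeks, and their age was not stated in the labels. Each nucleus library was 1 pool of 3 livers, so a difference between the pools has no replicate check. Whole-liver RNA was measured in 3 MKO and 3 control livers, which carried the only replicates of the study. The sources used here do not say whether the pooled livers are the same as those measured in bulk.

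T cells recognise antigen through a receptor whose CD3 and CD247 chains pass the signal to the kinases Lck and Zap70 and to the adaptors Skap1, Themis and Lcp2. NK cells lack that receptor and use the Klr and Ncr families. In steatohepatitis the liver is known to gather CD8 T cells that stay in the tissue, carry the chemokine receptor Cxcr6 and the checkpoint receptor PD-1, and make granzymes and the chemokines Ccl3, Ccl4 and Ccl5. TGF-beta restrains T and NK cells and helps some of them stay in tissues, and these lymphocytes are not the intended target of LysMcre.

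The number of nuclei per column is not stated in the files and was read from the values. Where a gene has 1 UMI (1 counted RNA molecule) in 1 nucleus, 10000 divided by its mean level is a whole multiple of the number of nuclei in the column. Of the repeated values of cluster 7, 100% were such multiples in each pool. In simulated columns 5 of 6 column sizes were recovered exactly, and for the largest no number was returned. The totals of the pools rest on all 13 clusters, where the share of such multiples ran from 75.8% in cluster 11 of the MKO pool to 100%. The UMI totals that could be read had a median of 1576 per nucleus in the MKO pool and 1309 in the control pool. Levels turned into UMIs below are approximate: in the simulated columns the true number was 0.982 to 1.07 times the estimate.

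Cluster 7 made up 4.51% of the MKO pool (exact binomial 95% interval 4.09 to 4.95) and 2.86% of the control pool (2.51 to 3.24), a ratio of 1.58. These intervals cover counting error only and not the spread between livers. The macrophage-rich cluster 2 took 18.2% of the MKO pool and 8.27% of the control pool, so shares of all nuclei depend on what the other clusters did. Outside the 3 hepatocyte clusters, T and NK nuclei were 9.15% of MKO nuclei and 6.12% of control nuclei. Among the 4 leukocyte clusters (2, 7, 8 and 11) they were 18.1% of MKO nuclei (interval 16.5 to 19.7) and 20.4% of control nuclei (18.1 to 22.9), and there the intervals overlapped. Nuclei had been sorted on propidium iodide, and clusters were built from these same genes, so the shares are given as a description.

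**Figure D1:**
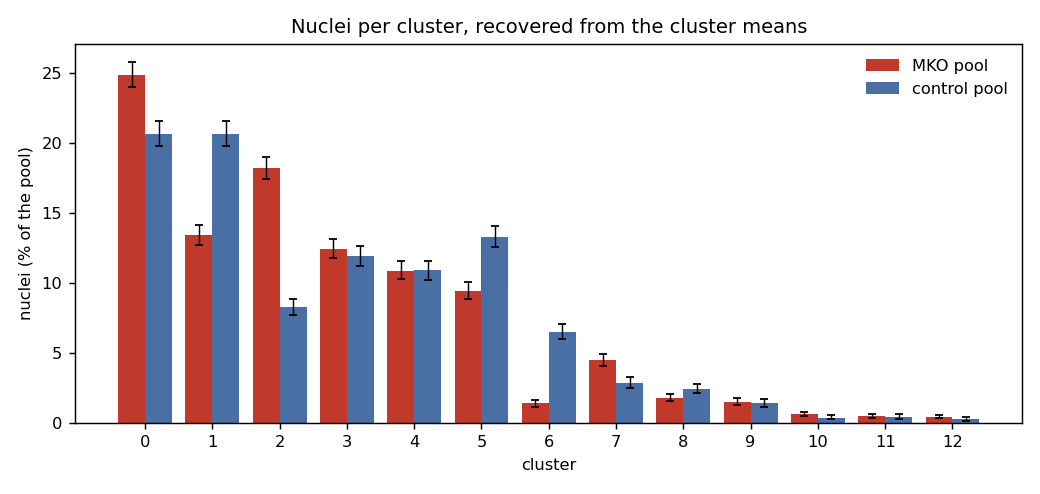
Nuclei of each cluster as a percentage of all nuclei in the MKO pool (red, left) and the control pool (blue, right), with exact binomial 95% intervals as error bars. Cluster 7 held 4.51% of the MKO pool and 2.86% of the control pool, and the widest gaps were in clusters 1, 2 and 6.

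All 4 markers given for the cluster were highest there in both pools. Skap1, an adaptor of the T cell receptor, was at 23.8 in the MKO pool and 35.4 in the control pool, in UMIs per 10000 UMIs of a nucleus (the unit of every level below). Themis, needed for T cell selection in the thymus, was at 10.8 in the MKO pool and 13.5 in the control pool. Cd247, the zeta chain of the receptor complex, was at 7.23 in the MKO pool and 8.86 in the control pool. Ccl5, a chemokine of activated T and NK cells, was at 13.6 in the MKO pool and 3.99 in the control pool. Ccl5 was thus the only one of the 4 that was higher in MKO nuclei, and the other 3 were lower by less than 2-fold. On build GRCm38 (GENCODE vM21) Skap1 lies on chromosome 11 from 96464593 to 96759130, Themis on chromosome 10 from 28668360 to 28883818 and Cd247 on chromosome 1 from 165788681 to 165877277, all on the + strand. Ccl5 lies on chromosome 11 from 83525778 to 83530518 on the - strand.

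**Figure D2:**
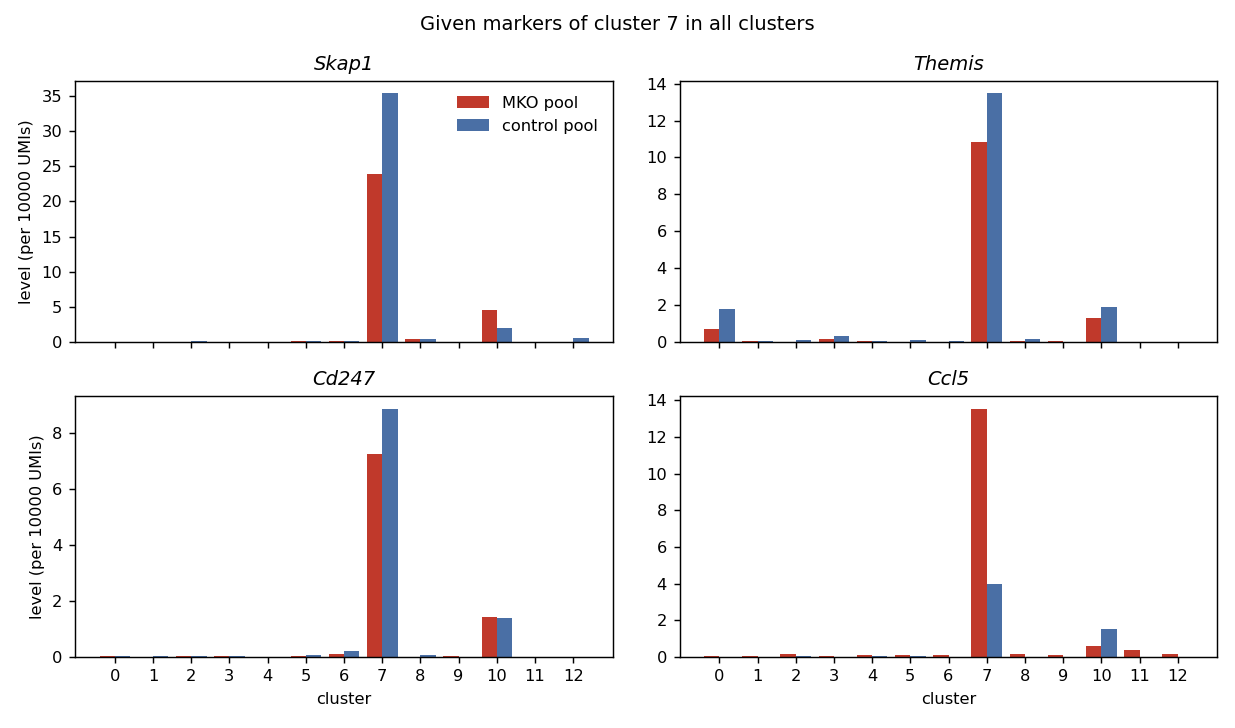
Level of Skap1, Themis, Cd247 and Ccl5 (UMIs per 10000) in each of the 13 clusters, MKO pool in red at the left of each pair and control pool in blue. Every marker peaks in cluster 7, and cluster 10 is next in both pools for each of them.

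Cluster 10 was the next highest for each marker, at 4.46 in the MKO pool and 1.91 in the control pool for Skap1. It held only 57 MKO nuclei and 31 control nuclei, and the list of 8 cell-division genes summed to 28.9 there in the MKO pool and 36.9 in the control pool. In cluster 7 those 8 genes summed to 1.23 in the MKO pool and 0.389 in the control pool. Themis was also listed at 0.690 in the MKO pool and 1.77 in the control pool in hepatocyte cluster 0, which matters for the whole-liver values below.

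Across all genes, 31, with Skap1, Themis and Cd247 among them, were at or above the floor described below and at least 4-fold above the highest other cluster in both pools. The first in that order were Myo3b, a myosin, at 2.37 in the MKO pool and 1.91 in the control pool, and Camk4, a calcium-dependent kinase, at 5.86 in the MKO pool and 5.59 in the control pool. Next came Il2rb, the beta chain of the IL-2 and IL-15 receptors, at 4.72 in the MKO pool and 5.26 in the control pool, and was 9.93-fold above the highest other cluster in the MKO pool and 14.5-fold in the control pool. The list went on with Cd6, Trbc1, the Tec family kinase Txk, Cxcr6, Ms4a4b and Lef1, all at least 7.25-fold above any other cluster in both pools. It further held Rinl, Cd226, Bcl11b, Cd28, Cd3g, Tbx21, Ccl4, Lck, Cd3e and Ubash3a. Nkg7, a granule protein of cytotoxic cells, lay just below the limit, at 15.8-fold in the MKO pool and 3.61-fold in the control pool. Clusters were made from these genes, so their height in cluster 7 is no test of anything. Reads of Trbc1 and Trbc2, which are near-identical, may be split uncertainly.

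Both T and NK genes were present. All 25 genes of the T cell identity list were detected, and 24 of them were highest in cluster 7 in both pools. Of 14 NK and ILC1 genes, 13 were highest there in both pools, among them Klrk1, an activating receptor, at 3.28 in the MKO pool and 3.12 in the control pool. Klrd1, which pairs with the NKG2 receptors, was at 2.91 in the MKO pool and 2.73 in the control pool. Ncr1, the NKp46 receptor, was at 1.02 in the MKO pool and 1.52 in the control pool. Cd8a was at 1.52 in the MKO pool and 1.01 in the control pool, and Cd4 at 1.47 in the MKO pool and 1.04 in the control pool. A mean over the cluster does not say which nuclei held which of these genes. By rank correlation over 22578 genes the profile was closest to cluster 8, where the B cell list was highest (Spearman's rho 0.85 in both pools), then to clusters 2 and 10. That is a description across genes, which share depth and free RNA.

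RNA of other cells was present in cluster 7. The 18 hepatocyte genes summed to 208 in the MKO pool and 142 in the control pool, and in cluster 8 to 201 in the MKO pool and 139 in the control pool. All 18 were above 0 in both pools. The 21 macrophage genes summed to 4.33 in MKO nuclei and 1.84 in control nuclei of cluster 7, and to 111 in MKO nuclei and 93.2 in control nuclei of cluster 2. Of these 21, Gpnmb and Trem2 were at 0 in MKO nuclei, and 10 were at 0 in control nuclei, among them Csf1r, Cd68, Marco and Clec4f. The control pool had fewer UMIs in this cluster, where 1 UMI is a level of about 0.0322, against 0.0153 in the MKO pool. The numbers of zeros therefore cannot be compared directly. The B cell list summed to 1.03 in the MKO pool and 1.12 in the control pool, with Ms4a1 and Fcmr at 0 in both. The table holds means per cluster, so doublets could not be called here, and how the authors treated them is not stated in the labels. The 8 mitochondrial genes summed to 318 in the MKO pool and 234 in the control pool. What part this RNA had in the differences below was not tested.

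Tgfbr1, the type I receptor of TGF-beta and the targeted gene, was at 2.23 in the MKO pool and 2.61 in the control pool in cluster 7, a ratio of 0.854 with a 95% counting interval of 0.647 to 1.14. In cluster 2 it was at 4.87 in the MKO pool and 13.5 in the control pool. Whole liver gave 560, 857 and 735 normalised reads in MKO livers 1 to 3, against 737, 810 and 777 in control livers 1 to 3, and the groups overlapped. Which exon Cre removes is not stated in the labels, so a count over all exons need not reveal it. Tgfbr2, the type II receptor, was at 3.36 in the MKO pool and 3.40 in the control pool. Smad3, which carries the signal to the nucleus, was at 1.76 in the MKO pool and 2.73 in the control pool. Of 16 genes of the pathway, 6 reached the floor described next, and none of the 6 was past 2-fold.

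A gene entered the comparison of the pools where its larger level in cluster 7 was at or above 1.61, the 90th percentile of non-zero levels. That floor is about 105 UMIs in the MKO pool and 49.8 in the control pool. A gene could thus enter only through the pool where it was high, so ranks and counts past 2-fold depend in part on this rule. Ratios were taken as log2 of MKO over control with a pseudocount of 0.161, which pulls low genes towards 0. The same pseudocount was used for the ratios of all 13 clusters given beside those of cluster 7. A gene almost absent elsewhere therefore has an other-cluster median near 0 in any case, which does not set cluster 7 apart. Of 1602 genes at the floor, 29 (1.81%) were at least 2-fold higher in MKO nuclei and 36 (2.25%) at least 2-fold lower. The median log2 ratio was -0.11; with ratios centred on it, 51 genes were at least 2-fold higher. The share past 2-fold, 4.06%, lay near the middle of the 13 clusters, just below cluster 9 at 4.48%. The shares ran from 2.23% in cluster 4 to 22.0% in cluster 10.

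The chemokines made by activated T and NK cells were higher in MKO nuclei. Ccl5 had a log2 ratio of 1.72, against a median of 0.56 over the other 12 clusters. Ccl4, a chemokine that draws in other leukocytes, was at 5.45 in the MKO pool and 2.40 in the control pool (log2 ratio 1.13). Ccl3, its neighbour on chromosome 11, was at 2.19 in the MKO pool and 0.610 in the control pool (1.61). In the other clusters the median ratio of Ccl4 and Ccl3 was 0.07 and 0.01. About 886 UMIs in the MKO pool and 124 in the control pool stood behind Ccl5, which put its plain ratio at 3.39 with a counting interval of 2.81 to 4.12. Over the 16 cytotoxic effector genes, 8 reached the floor, 6 with a positive and 2 with a negative ratio. Of the 8, 3 were past 2-fold higher and none lower, and the median log2 ratio was 0.90. Ccl3 and Gzma reached the floor only in the MKO pool. Over all 16, 12 ratios were positive and the median was 0.55. Granule genes were next. Nkg7 was at 4.19 in the MKO pool and 2.19 in the control pool (0.89, other clusters 0.06). Gzma, a granzyme, was at 2.74 in the MKO pool and 1.38 in the control pool (0.91). Tbx21, the T-bet factor of effector cells, was 1 of the 2 genes at the floor with a negative ratio, at 1.91 in the MKO pool and 2.36 in the control pool. Below the floor Gzmb, a second granzyme, was at 1.58 in the MKO pool and 0.587 in the control pool. Ifng was at 0.235 in the MKO pool and 0.123 in the control pool, with an interval of its ratio (0.567 to 7.36) that spans 1.

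Checkpoint receptors and genes of regulatory T cells formed a further set with higher levels in MKO nuclei. Ctla4, which competes with Cd28 for its ligands, was at 3.79 in the MKO pool and 0.962 in the control pool (log2 ratio 1.82). Havcr2, the TIM-3 receptor, was at 1.86 in the MKO pool and 0.432 in the control pool (1.77), while in cluster 2 its log2 ratio was -1.42. Tox, a factor of chronically stimulated T cells, was at 26.2 in the MKO pool and 22.9 in the control pool. Its log2 ratio of 0.19 stood against a median of -0.80 in the other clusters, of which hepatocyte cluster 0 was the highest, at 8.05 in the MKO pool and 10.3 in the control pool. All 4 checkpoint genes at the floor had a positive ratio, 2 of them past 2-fold, with a median of 0.98. Those 2, Ctla4 and Havcr2, reached the floor only in the MKO pool. Over all 13 checkpoint genes, 11 ratios were positive and the median was 0.28. Ikzf2, the Helios factor found in regulatory T cells and some NK cells, was at 16.5 in the MKO pool and 8.74 in the control pool (0.90). All 7 genes of the regulatory T list had a positive ratio, although only Ikzf2 and Ctla4 reached the floor. Tnfrsf18, the GITR receptor, was at 0.945 in the MKO pool and 0.383 in the control pool, and Il2ra, the IL-2 receptor alpha chain, at 0.732 in the MKO pool and 0.547 in the control pool. Of genes below the floor, chosen after their values were seen, Pdcd1 (PD-1) was at 1.42 in MKO nuclei and 0.411 in control nuclei. Foxp3 was at 0.323 in MKO nuclei and 0.104 in control nuclei, about 21.2 UMIs in the MKO pool and 3.24 in the control pool, with a ratio interval of 0.991 to 17.4. In the other clusters the median ratio ran from -0.01 to 0.00 for Ctla4, Ikzf2, Pdcd1 and Foxp3. The pseudocount pulls such medians towards 0 where levels are low, so they do not set cluster 7 apart. Cluster 10, with 57 MKO nuclei and 31 control nuclei, shared the direction. The regulatory T list summed there to 4.13 in the MKO pool and 0.422 in the control pool.

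Mir155hg, the host transcript of miR-155, had the second highest ratio of all genes at the floor, at 2.65 in the MKO pool and 0.571 in the control pool (log2 ratio 1.94, counting interval of the plain ratio 2.80 to 7.87). The median of the other clusters was 0.01. Mir155hg reached the floor only in the MKO pool, so its rank depends in part on the rule for the floor. The mature miRNA, which is known to be induced on lymphocyte activation, was not measured. It is shown because the host gene led the T and NK genes, with its seed (bases 2 to 8) in capitals, from RefSeq on build GRCm38.p6.
mmu-miR-155-5p, chr16:84714143-84714165, + strand: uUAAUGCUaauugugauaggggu

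Other genes with high ratios were less usual T cell genes. Oprm1, the mu opioid receptor, was at 4.34 in the MKO pool and 1.44 in the control pool (log2 ratio 1.49), and cluster 7 gave 58.5% of its summed nuclear signal in the MKO pool and 49.1% in the control pool. Arhgap31, a GTPase-activating protein, was at 2.31 in the MKO pool and 0.809 in the control pool. Eea1, of early endosomes, was at 2.56 in the MKO pool and 0.975 in the control pool, and the septin Sept11 at 2.42 in the MKO pool and 0.939 in the control pool. Median ratios of the other clusters were 0.00, 0.30, -0.18 and -0.22 for these 4. Pim1, a kinase induced by cytokines, was at 3.59 in the MKO pool and 1.60 in the control pool. All of these genes reached the floor only in the MKO pool.

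Many of the higher genes were also higher in the other clusters. Orm1, a plasma protein of hepatocytes, was at 1.91 in the MKO pool and 0.300 in the control pool (log2 ratio 2.17), with a median of 1.42 in the other clusters. Of the 29 genes past 2-fold higher, 17 differed the same way by over 0.5 in the median of the other 12 clusters. They include Bhmt and Serpina1c of hepatocytes, the class I molecule H2-D1 and the heat shock protein Hsp90ab1. Of 67 ribosomal protein genes at the floor, 65 had a positive ratio with a median of 0.61, against 0.65 in the other clusters; Rpl29 had the highest, at 1.83 in the MKO pool and 0.518 in the control pool. The remaining 12 were Ctla4, Havcr2, Mir155hg, Ccl3, Ccl4, Oprm1, Pim1, Arhgap31, Eea1, Sept11, Rpl12 and Gm2245. Genes at low levels in the other clusters could hardly pass 0.5 there because of the pseudocount, so this list does not set its members apart. Of the 12, Ctla4, Havcr2, Mir155hg, Ccl3, Oprm1, Pim1, Arhgap31, Eea1 and Sept11 reached the floor only in the MKO pool. So did Orm1 and Rpl29. Ccl5 is not among them by a narrow margin, at 0.56.

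Some transcription factors of naive and memory T cells were lower in MKO nuclei, while other genes of that list were not. Satb1, a chromatin organiser of T cell development, was at 4.98 in the MKO pool and 10.7 in the control pool (log2 ratio -1.08, median of the other clusters -0.02). Lef1, a factor of naive and stem-like T cells, was at 4.27 in the MKO pool and 6.78 in the control pool (-0.65, other clusters near 0). Foxp1, which keeps naive T cells quiescent, was at 10.2 in the MKO pool and 16.4 in the control pool (-0.68, other clusters -0.22), and Bach2, which restrains effector programmes, at 4.56 in the MKO pool and 6.74 in the control pool (-0.55, other clusters -0.16). Of 10 genes in that list 6 reached the floor, and 5 of the 6 had a negative ratio, with a median of -0.60. Over all 10, 5 ratios were positive and the median was -0.13. The list summed to 35.7 in the MKO pool and 51.1 in the control pool, and it was also lower in MKO nuclei in other clusters, such as cluster 8, at 97.7 in the MKO pool and 114 in the control pool. Only Satb1 was past 2-fold. Il7r, the IL-7 receptor, was the exception at 7.07 in the MKO pool and 6.39 in the control pool. Below the floor Ccr7, which guides naive cells to lymph nodes, and S1pr1, which lets them leave, had positive ratios of 0.41 and 0.33. The genes with lower values were all transcription factors or chromatin regulators. Klf2, also a transcription factor of the list, went the other way below the floor. It was at 1.21 in the MKO pool and 0.575 in the control pool (log2 ratio 0.90).

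Itga1, the alpha chain of the collagen-binding VLA-1 integrin and a marker of resident T cells and ILC1, was at 2.54 in the MKO pool and 5.85 in the control pool (log2 ratio -1.16). The median of the other clusters was 0.05. Of 11 residency genes 8 had a positive ratio. Cxcr6 was at 3.75 in the MKO pool and 2.68 in the control pool (0.46), Runx3, a factor of CD8 and resident cells, at 3.13 in the MKO pool and 1.60 in the control pool (0.91), and Rgs1 at 1.63 in the MKO pool and 1.12 in the control pool (0.48). Btbd11 was at 1.73 in the MKO pool and 5.22 in the control pool (-1.51), and the phospholipid flippase Atp8a2 at 1.77 in the MKO pool and 4.01 in the control pool (-1.11). In both genes the median of the other clusters lay within 0.03 of 0. Sox5 had a log2 ratio of -1.51 here, at 0.511 in the MKO pool and 1.75 in the control pool. It reached the floor only in the control pool.

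**Figure D3:**
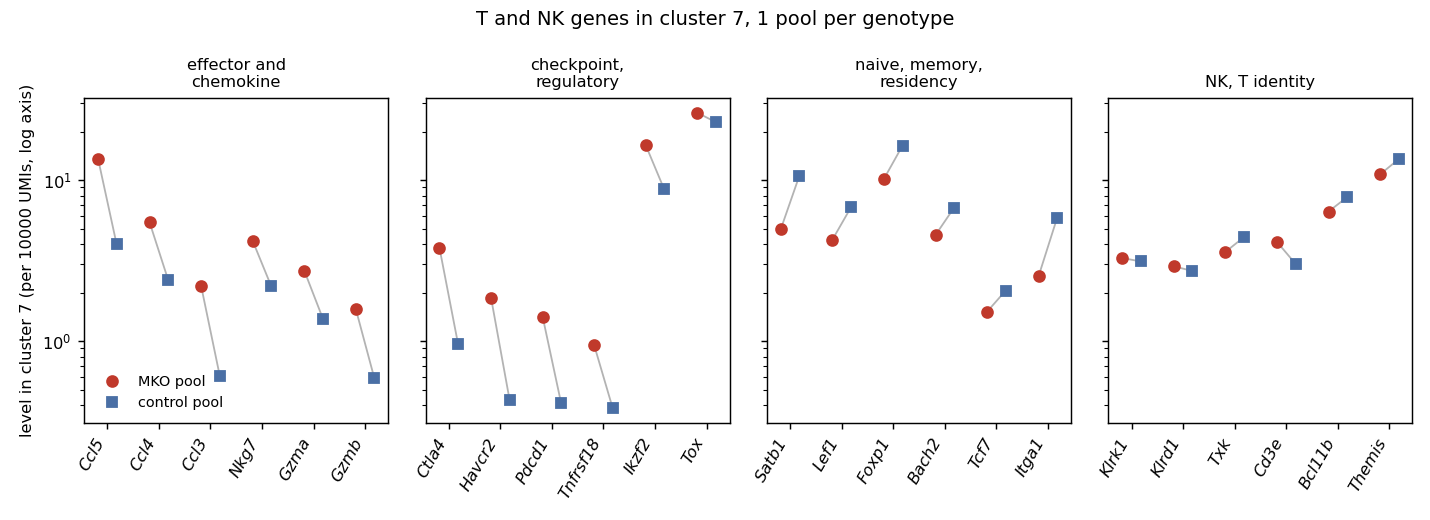
Level in cluster 7 (UMIs per 10000, log axis) of T and NK genes in the MKO pool (red circles, left) and the control pool (blue squares, right), 1 value per pool and no error. Chemokine, granzyme and checkpoint genes are higher in the MKO pool, Satb1, Lef1, Foxp1, Bach2 and Itga1 lower, and the NK receptors Klrk1 and Klrd1 lie within 0.09 of 0 on the log2 ratio scale. Gzma, Pdcd1 and Tcf7 were picked after their values were seen. Only some members of each list are drawn. Tbx21, lower in the MKO pool, is left out, as are Il7r, Klf2, Ccr7, S1pr1, Cxcr6, Runx3 and Rgs1, which had positive ratios. Over the whole lists, 5 of 10 naive and memory genes and 8 of 11 residency genes had a positive ratio.

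Of the 36 lower genes, 17 had their highest level in a hepatocyte cluster, and 16 differed the same way by over 0.5 in the median of the other clusters. Cdh18, a cadherin, was at 0.232 in the MKO pool and 1.69 in the control pool (log2 ratio -2.23, other clusters -1.89). Ghr, the growth hormone receptor, was at 1.17 in the MKO pool and 4.56 in the control pool (-1.83, other clusters -0.63). Slc7a2, Cyp3a25 and Dpyd had ratios of -1.52, -1.47 and -1.47, with other-cluster medians of -1.22, -1.25 and -1.03. Pard3, Slc4a4, Nfib, Nr3c2 and Ptprd had ratios from -1.86 to -1.33. Their medians in the other clusters ran from -0.75 to -0.49. Of these named genes, only Cyp3a25 and Dpyd reached the floor in both pools. With genes highest in a hepatocyte cluster left out, a choice made after the data were seen, the count of lower genes was 19.

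**Figure D4:**
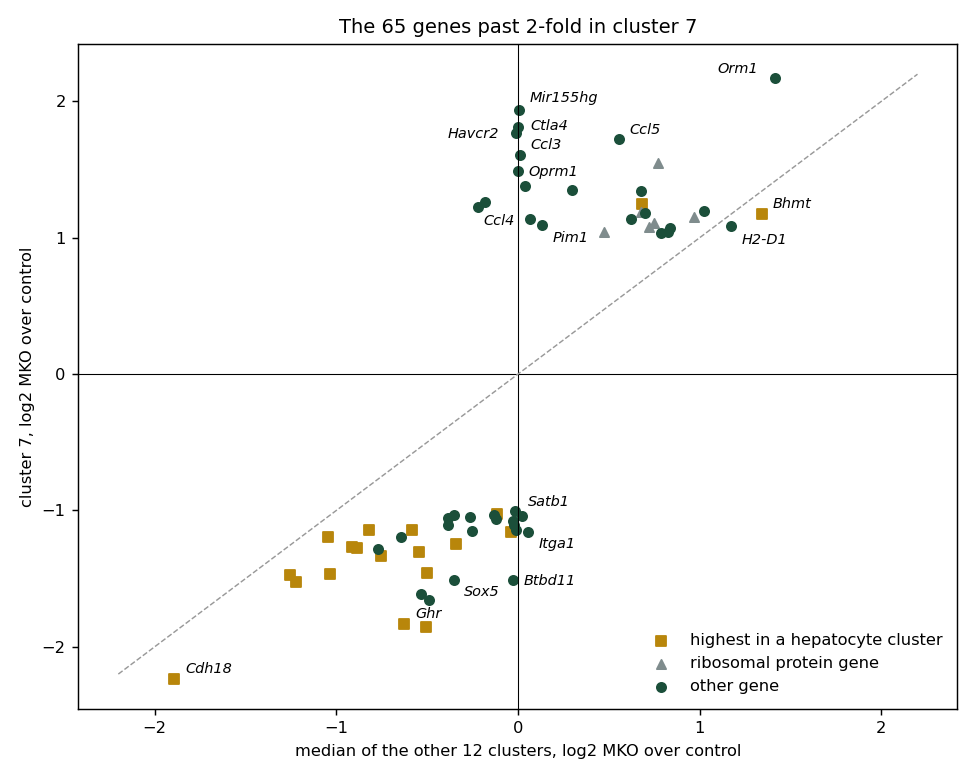
Each point is 1 of the 65 genes past 2-fold in cluster 7, with its log2 ratio of MKO over control there (vertical) against the median log2 ratio of the other 12 clusters (horizontal). The dashed line marks equal ratios. Ctla4, Havcr2, Mir155hg, Ccl3 and Oprm1 lie near 0 on the horizontal axis, whereas Bhmt, H2-D1 and Cdh18 lie near the dashed line. The pseudocount holds the horizontal value near 0 for genes at low levels in the other clusters. Squares are genes highest in a hepatocyte cluster, triangles ribosomal protein genes and circles the other genes.

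The T cell receptor itself and its signalling chain showed small differences. Of 22 identity genes at the floor, none was past 2-fold in either direction on the scale with the pseudocount, and their median log2 ratio was 0.10. Cd3g came nearest, at 4.46 in the MKO pool and 2.21 in the control pool (0.96). Cd3g and Cd27, a co-stimulatory receptor, had plain ratios of 2.02, past 2-fold without the pseudocount. With ratios centred on the median these 2 genes were past 2-fold, as were Ikzf2, Runx3 and Gzma. Cd3e was at 4.13 in the MKO pool and 3.02 in the control pool. Bcl11b, which fixes T cell identity, was at 6.37 in the MKO pool and 7.83 in the control pool. Of 21 signalling genes at the floor none was past 2-fold, with Ptprc (CD45) at 26.2 in the MKO pool and 26.8 in the control pool and Prkcq, the kinase PKC-theta, at 6.24 in the MKO pool and 9.46 in the control pool. None of 13 cytokine receptor and JAK-STAT genes was past 2-fold. Stat4 was at 6.65 in the MKO pool and 8.56 in the control pool, and Jak1 at 5.54 in the MKO pool and 7.60 in the control pool. Only 2 of the 23 interferon-stimulated genes reached the floor in cluster 7. Neither was past 2-fold, and the whole list summed to 13.7 in the MKO pool and 13.6 in the control pool. Of 7 trafficking receptors at the floor none was past 2-fold. Itga4, which binds VCAM-1, was at 12.9 in the MKO pool and 10.7 in the control pool, and Itgal, the LFA-1 chain, at 4.34 in the MKO pool and 4.54 in the control pool.

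Lists of rarer lymphocytes gave little. Gata3, the factor of ILC2 and type 2 T cells, was at 0.913 in the MKO pool and 0.977 in the control pool, and Il1rl1, the IL-33 receptor, at 0.264 in the MKO pool and 0.287 in the control pool. The gamma-delta chain gene Tcrg-C2 was at 0.922 in the MKO pool and 0.852 in the control pool. Il23r, the IL-23 receptor of type 17 cells, was at 0.565 in the MKO pool and 0.194 in the control pool, with a counting interval of its ratio of 1.22 to 8.48. The immediate early list, which marks recent stimulation or handling, had Btg2 alone at the floor, at 2.62 in the MKO pool and 2.76 in the control pool.

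The promoters of Themis, Cd247, Ctla4, Havcr2, Mir155hg, Ccl3 and Satb1 were searched for 3 motifs of lymphocyte factors on both strands, from 250 bases before to 50 bases after each RefSeq start (build GRCm38.p6). These were the RUNX motif TGTGGT, found in 16.8% of 32851 promoters, the ETS motif CAGGAAG, in 13.3%, and the T-box motif GGTGTGA, in 3.98%. Cd247 had 2 ETS matches, both on the opposite strand, at -57 and 23 from the start. Havcr2 had 1 RUNX match at -46 and Ccl3 had 1 at -122. Themis, Ctla4 and Mir155hg had none of these letters in the window, 1 of 5 Satb1 starts had an ETS match, and no promoter was read for Skap1 or Ccl5. The 3 promoters with a match in a marker or a higher gene are shown 5′ to 3′ with the matches in capitals.
Cd247 promoter, chr1:165788431-165788730, + strand: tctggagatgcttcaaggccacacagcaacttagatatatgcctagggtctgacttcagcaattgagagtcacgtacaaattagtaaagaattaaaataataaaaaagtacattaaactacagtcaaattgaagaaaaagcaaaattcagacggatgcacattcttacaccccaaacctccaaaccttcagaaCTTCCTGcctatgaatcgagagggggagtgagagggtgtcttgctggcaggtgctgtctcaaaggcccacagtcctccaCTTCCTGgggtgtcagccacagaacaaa
Havcr2 promoter, chr11:46454681-46454980, + strand: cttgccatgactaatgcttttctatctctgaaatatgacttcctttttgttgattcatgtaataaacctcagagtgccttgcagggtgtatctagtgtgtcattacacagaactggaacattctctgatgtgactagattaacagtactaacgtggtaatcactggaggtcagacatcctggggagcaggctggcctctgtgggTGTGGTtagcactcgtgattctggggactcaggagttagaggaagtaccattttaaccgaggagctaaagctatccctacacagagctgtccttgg
Ccl3 promoter, chr11:83649329-83649628, - strand: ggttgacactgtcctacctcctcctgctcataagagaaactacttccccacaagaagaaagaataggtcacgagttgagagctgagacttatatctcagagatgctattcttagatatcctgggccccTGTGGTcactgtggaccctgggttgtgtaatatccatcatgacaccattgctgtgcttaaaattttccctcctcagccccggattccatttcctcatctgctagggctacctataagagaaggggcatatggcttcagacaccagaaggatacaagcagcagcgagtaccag

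Whole liver was not used to build the clusters, so its RNA gave a replicated measure of the same genes. In bulk tissue more cells of a type and more RNA per cell cannot be told apart. Values are the authors' normalised read counts, tested as log2 of value + 1, and a gene was called at a Benjamini-Hochberg adjusted p under 0.05. Over 15249 genes limma called 452 higher in MKO livers (2.96%) and 13 lower (0.0853%), with a median log2 fold change of -0.02. Of the 31 enriched genes, 23 were measured in bulk and 4 were called higher: Ccl4, Cd3e, Il2rb and Rinl. All 23 had a positive change, with a median of 1.14. In 15 of the 23 every MKO liver lay above every control liver, against 10.4% of all genes tested. The summed reads of the 23 were 724, 931 and 981 in MKO livers, against 428, 441 and 309 in control livers, a ratio of 2.24. The lowest MKO liver lay above the highest control liver. With the list widened to genes at least 2-fold above the other clusters the ratio was 1.36. Without MKO 2 or MKO 3 none of the 23 was called, and without any 1 control liver 1 was.

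Cd3e, a chain of the T cell receptor complex, had 41.5, 57.1 and 60.7 normalised reads in MKO livers, against 18.5, 24.1 and 15.8 in control livers. It was 2.65-fold higher (log2 fold change 1.40 ± 0.28 SE, limma adjusted p = 0.0328). Il2rb had 61.0, 98.9 and 96.3 reads in MKO livers, against 38.0, 31.5 and 31.5 in control livers (1.29 ± 0.25, limma adjusted p = 0.0290). Cd8a, the CD8 alpha chain, had 53.7, 53.0 and 52.0 reads in MKO livers, against 16.3, 13.6 and 19.7 in control livers (1.63 ± 0.25, limma adjusted p = 0.0113). In these 3 genes the groups did not overlap, and cluster 7 gave 78.0% to 84.2% of the nuclear signal in the MKO pool and 82.6% to 92.9% in the control pool. The call of Cd8a was lost in fits without MKO 2 or MKO 3. Those of Cd3e and Il2rb were lost without either of these or any 1 control liver.

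Gzmb had 46.4, 33.7 and 70.3 reads in MKO livers, against 13.0, 9.45 and 5.91 in control livers. That was a log2 fold change of 2.28 ± 0.39 (limma adjusted p = 0.0169). Ccl4 had 22.0, 23.5 and 42.4 reads in MKO livers, against 2.17, 9.45 and 2.96 in control livers (2.51 ± 0.53, limma adjusted p = 0.0432). Rinl, a Ras and Rab interactor-like protein, had 96.4, 114 and 135 reads in MKO livers, against 53.2, 39.9 and 34.5 in control livers (1.43 ± 0.23, limma adjusted p = 0.0137). In all 3 the MKO livers lay above the control livers without overlap, and the level in cluster 7 was also higher in the MKO pool. Depth was low for Ccl4 and Gzmb, with under 10 reads in 3 and 2 control livers. The call of Gzmb was lost without MKO 1, MKO 3 or control 2, that of Ccl4 without any 1 of the MKO livers, control 1 or control 3, and that of Rinl without MKO 2, MKO 3 or control 2.

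Satb1 was higher in whole MKO liver and lower per MKO nucleus of the cluster. It had 45.2, 47.9 and 51.0 reads in MKO livers, against 14.1, 17.8 and 25.6 in control livers (1.32 ± 0.29, limma adjusted p = 0.0475), while in cluster 7 the control level was 2.14 times the MKO level. Cluster 7 gave 39.5% of its nuclear signal in the MKO pool and 46.2% in the control pool. Cluster 8 held it at 6.91 in the MKO pool and 6.52 in the control pool. The call was lost without any 1 of the MKO livers, control 1 or control 2 and missed the threshold in edgeR's quasi-likelihood test (adjusted p = 0.0625).

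The markers of the cluster were not called in whole liver. Cd247 had 29.3, 34.7 and 42.4 reads in MKO livers, against 16.3, 14.7 and 16.8 in control livers (1.09 ± 0.28, limma adjusted p = 0.0896), with no overlap. Skap1 had 13.4, 16.3 and 12.5 reads in MKO livers, against 6.51, 6.30 and 4.93 in control livers (1.13 ± 0.38, limma adjusted p = 0.233), again with no overlap. Ccl5 had 28.1, 59.1 and 67.4 reads in MKO livers, against 18.5, 26.2 and 6.90 in control livers (1.61 ± 0.51, limma adjusted p = 0.200). Themis had 83.0, 60.2 and 128 reads in MKO livers, against 67.3, 70.3 and 28.6 in control livers (0.73 ± 0.40, limma adjusted p = 0.528), and these overlapped. Of its nuclear signal only 25.8% in the MKO pool and 7.06% in the control pool came from cluster 7, and most of the rest from hepatocyte cluster 0. The receptor chain genes Trbc1 and Trac missed the threshold narrowly (limma adjusted p = 0.0554 and 0.0519). Among the other enriched genes with a high level in cluster 7, Ikzf2, Ms4a4b, Prkcq, Bcl11b, Ipcef1, Lck and Cd3g were not called either, with log2 fold changes from 0.37 to 1.42.

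**Figure D5:**
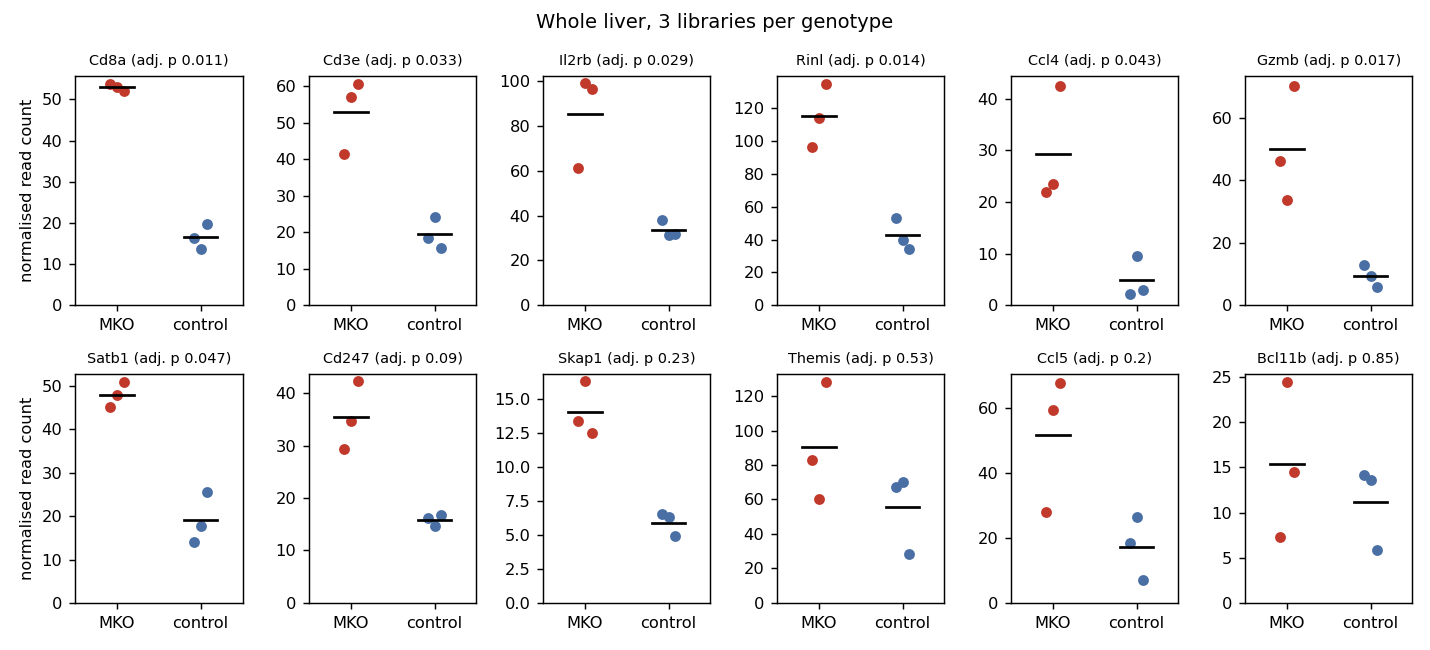
Normalised read counts of 12 genes in whole liver, 3 MKO livers (red, left) and 3 control livers (blue, right), with the mean as a bar and the limma adjusted p above each panel. The MKO livers lie above the control livers without overlap in 10 of the 12 panels, the exceptions being Themis and Bcl11b.

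Over all 239 genes of the T and NK lists, 198 were tested in bulk, and 37 were called higher and 1 lower. Over all 15249 genes tested, 2.96% were called higher and 0.0853% lower, shares that stand beside every count of this paragraph. The 37 became 14 without MKO 2, 15 without MKO 3 and 24 without control 2 or control 3, and the 1 became 2 without MKO 3. With Rinl, which is in no list, 39 genes were called. Most of these are shared with other leukocytes. Only 4 of the 39, Cd8a, Cd3e, Il2rb and Gzmb, had at least 50% of their nuclear signal in cluster 7 in both pools. In 26 of them the share was under 25% in both pools, and 15 were higher in cluster 2 than in cluster 7 of the MKO pool. Among the 26 were Ptprc, at 764, 923 and 902 reads in MKO livers, against 364, 286 and 228 in control livers (1.58 ± 0.18, limma adjusted p = 0.00430), and the IL-10 receptor Il10ra (1.61 ± 0.16, limma adjusted p = 0.00345). Il10ra was also among the 15. Ptprc was not, at 26.2 in cluster 7 and 18.7 in cluster 2 of the MKO pool. Of the macrophage list, 13 of 21 genes were called higher and 1 lower in the same libraries. List genes called higher with lower shares in cluster 7 included the signalling genes Lcp2, Vav1, Fyb, Grap2, Ptpn22 and Rasgrp1 and the integrins Itgal, Itgb2 and Itgb7. In the MKO pool Lcp2, Vav1 and Fyb were higher in cluster 2 than in cluster 7, and Grap2, Ptpn22 and Rasgrp1 were lower there. The ligand Selplg, the receptors Cd244a and Il2rg, and the factors Ikzf1, Ikzf3, Batf, Zeb2 and Klf2 were also called higher, as were Tgfb1 and Rgs2. The interferon-stimulated genes called higher were Gbp3, Gbp7, Irf7, Oasl2, Trim30a, Ifit2, Ifit3 and Igtp, 8 of 23. Cx3cr1, carried by effector T and NK cells but also by monocytes and macrophages, was the 1 called lower, at 7.32, 17.3 and 10.6 reads in MKO livers, against 55.4, 71.4 and 80.8 in control livers (-2.52 ± 0.35, limma adjusted p = 0.00691). In cluster 7 it was near 0, at 0.221 in the MKO pool and 0.0398 in the control pool.

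By role, against 2.96% of all genes called higher, the calls in whole liver were 2 of 24 identity genes, 1 of 2 CD8 genes, 3 of 11 cytotoxic genes and 7 of 24 signalling genes, all higher. None of 4 NK genes, 5 regulatory T genes or 3 gamma-delta and type 17 genes tested was called, counts too small to set apart from that share. Klrk1 came nearest of the NK genes, at 45.2, 73.4 and 62.6 reads in MKO livers, against 29.3, 21.0 and 13.8 in control livers (1.49 ± 0.33, limma adjusted p = 0.0533). Havcr2, higher in cluster 7 of the MKO pool, had 34.2, 30.6 and 43.3 reads in MKO livers, against 47.8, 40.9 and 40.4 in control livers (-0.26 ± 0.24, limma adjusted p = 0.743). Cluster 7 gave 36.7% of its nuclear signal in the MKO pool and 4.98% in the control pool. Ctla4, Pdcd1, Foxp3, Mir155hg, Txk and Lef1 were not analysed here in bulk.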

How the data were processed

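Whole-liver RNA was sequenced in 3 MKO and 3 control livers, and nuclei of 1 pool per genotype were profiled by droplet sequencing. Per the submitters' processing notes, Seurat 4.0.1, Cell Ranger, RSEM 1.3.3, STAR and DESeq2 were used with the mm10 build, in roles and with settings that they do not state. The deposited nuclei table holds the authors' mean normalised UMI signal per gene, cluster and pool, and each column sums to 10000. The deposited bulk values are the authors' size-factor normalised counts (signal); dividing by the step of each library gave whole reads for 100% of values within 0.01, and totals of 17448117 to 23986319 reads. The authors' deposited table also holds their own log2 fold changes and p-values from an unstated design, which were not used.

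From the nuclei, ratios were computed without a test. Numbers of nuclei were recovered from repeated values (tolerance 1e-05), and intervals of ratios treat the UMI estimates as counts. The share of a gene's nuclear signal from cluster 7 is over estimated UMIs of all 13 clusters. Bulk values were tested with limma 3.58.1 (trend) in R 4.3.3 on genes with a mean of at least 1. Replicates are separate libraries per the labels. edgeR 4.0.16 and DESeq2 1.42.0 on recovered reads were alternatives, with 6 leave-one-out fits, TMM scaling, other floors and a replicate block. In simulated MKO against control data limma found 6 of 67 genes set to a 1.5-fold difference, 42 of 67 set to 2-fold and 53 of 66 set to 4-fold, and made 13 calls among unaltered genes.

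Named genes were the given markers, the leading enriched genes, the 12 highest and 12 lowest ratios, the top 4 of each T and NK list and every called list gene. Ncr1, Gzma, Ifng, Pdcd1, Foxp3, Ccr7, S1pr1, Tcf7, Pim1, Cd27, Rpl12, Gm2245, Bhmt, Serpina1c, H2-D1, Trac and Klrk1 in bulk were chosen after their values were seen. The cluster, the lists and the tests were chosen with earlier results of these data known. A few genes that the naming rule covers are not reported here.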

Additional observations from a re-analysis of the deposited data

Results flagged for a closer look

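Sox5, a transcription factor, had opposite differences in the T and NK nuclei and the macrophage-rich cluster 2. In cluster 7 it was at 0.511 in the MKO pool and 1.75 in the control pool, a log2 ratio of -1.51. In cluster 2 it was at 6.67 in the MKO pool and 1.10 in the control pool, a log2 ratio of 2.44. The log2 ratio in cluster 7 minus that in cluster 2 was -3.95. With 1 pool per genotype, this difference was not tested.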

How the results depend on the processing

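The 29 genes at least 2-fold higher and 36 lower in MKO nuclei became 12 and 15 with the floor at the 95th percentile and 72 and 85 with it at the 80th. Centring the ratios gave 51 higher genes, and leaving out genes highest in a hepatocyte cluster, chosen after seeing the data, gave 19 lower ones. The 31 enriched genes became 49 at 2-fold and 6 at 8-fold. The bulk ratio of their sums, 2.24, became 1.36 at 2-fold. Leaving out 1 library at a time, the 4 enriched genes called higher in whole liver ranged from 0 to 3, the 37 list genes called higher from 14 to 35, and the 1 called lower from 1 to 2. These fits have fewer samples. The replicate numbers did not pair the livers (correlations of same-numbered deviations 0.06, -0.03 and -0.11), and the replicate block left 1 of the 4 calls. No direction reversed under the alternatives run. Among single genes in bulk, 442 values kept their side of the threshold and 104 called ones lost it. With 1 pool per genotype, the nuclei allow no statement on the spread between livers, and genes below the floor rest on few UMIs.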
